A study of Rattus norvegicus with 33 samples.

Results

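Mammary gland RNA from pubertal rats of postnatal day 63 (n = 5 arrays) was compared with that from peri-pubertal rats of day 42 (n = 5 arrays), which together make 10 of the 33 arrays of the series. The strain was Sprague-Dawley, outbred and with no engineered allele named, and the animals were female. Neither group received a test chemical: both were the vehicle arm of a toxicology study and were gavaged with 0.5 mL of olive oil. RNA came from the caudal glands numbered as the fifth pair and was extracted with the same Promega kit at both ages. Each group had 3 arrays in labelled batch 1 and 2 in labelled batch 2, and each array was taken as 1 animal. The estrous cycle was not matched at collection, and all animals of 1 age were killed on 1 day, so age and collection day cannot be told apart. Arrays are numbered 1 to 5 within each age. Arrays 1 to 3 are of batch 1 and arrays 4 and 5 of batch 2, and a shared number does not pair animals.

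In the rat, the weeks around puberty take the gland from ducts that end in club-shaped terminal buds, growing through a pad of fat and collagen, to a branched tree with small alveolar buds. Estrogen and progesterone drive ductal growth and branching, and prolactin, through the transcription factor STAT5, drives alveolar cells to make milk proteins. The stroma around the ducts, made of fat cells, fibroblasts, vessels and immune cells, is laid down and remodelled over the same weeks. In bulk tissue, fewer cells of a type and less RNA per cell cannot be told apart.

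Expression is given as log2 values made by the authors with robust multi-array average (RMA), so that a difference of 1 is a 2-fold difference. Each value belongs to 1 probe set and is compared between arrays, not between genes. Of 18166 genes with a single symbol, 10986 had a log2 value above 7.645, the median of all such values, in at least 3 arrays and were tested. Differences are day 63 minus day 42, from a limma model of all 33 arrays with stage and batch as terms, given with the standard error (SE). A gene was called at a Benjamini-Hochberg adjusted p under 0.05 over all 10986 genes. The luminal epithelium genes had array means of 9.33 to 9.89 at day 42 and 9.60 to 10.00 at day 63, and 0 of the 18 tested were called. Skeletal muscle genes stood apart in 2 arrays: their mean was 9.76 in day 42 array 1 and 9.48 in day 42 array 4, against 6.46 to 6.61 in the other 8, and 0 of the 11 tested were called (median difference -1.11). T cell and B cell genes were high in day 42 array 5 (means 8.0 and 8.42) and in day 63 arrays 4 (8.59 and 8.25) and 5 (8.07 and 7.85).

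The gland differed in 134 genes between the ages (1.22% of those tested), of which 79 rose at day 63 (0.719%) and 55 fell (0.501%). Rises were larger than falls, with a median of 0.79 against -0.62, and 22 rises but only 6 falls were at least 2-fold. The prohormone convertase gene Pcsk2, the vitamin D catabolism gene Cyp24a1, the chemokine gene Ccl11, interferon-induced genes and milk protein genes led the rises. Collagen and elastin genes, chaperone genes and the opioid precursor gene Penk were among the falls. The median difference over all tested genes was -0.01. At an unadjusted p under 0.05 there were 777 genes higher (7.07%) and 850 lower (7.74%). A test of whether the difference depended on batch (limma interaction of stage and batch) called 0 genes, with 408 at an unadjusted p under 0.05 and also 0 without the intensity trend. In 248 genes (2.26%) the 5 arrays of one age lay wholly above or below the 5 of the other, 112 higher (1.02%) and 136 lower (1.24%) at day 63, and 49 of the 248 were called. The values compared in this way were not corrected for batch. Most calls depended on which arrays were in the fit, since 13 of the 134 stayed called in each of the 10 fits that left out 1 array: Pcsk2, Cyp24a1, Ccl11, Spink8, RT1-T24-3, Herc6, Rtp4, Ifi27l2b, Xdh, Irf9 and St3gal4, which rose, and Alox15 and Eln, which fell. The count of calls was 16 without day 42 array 5, 52 without day 42 array 3, 74 without day 42 array 2, 87 without day 42 array 4 and 421 without day 42 array 1. Without day 63 array 2, 3 or 5 it was 41, 24 or 77. Without the batch term 5 genes were called, and within either batch alone 0 (1275 and 1338 at an unadjusted p under 0.05 within batch 1 and batch 2).

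**Figure D1:**
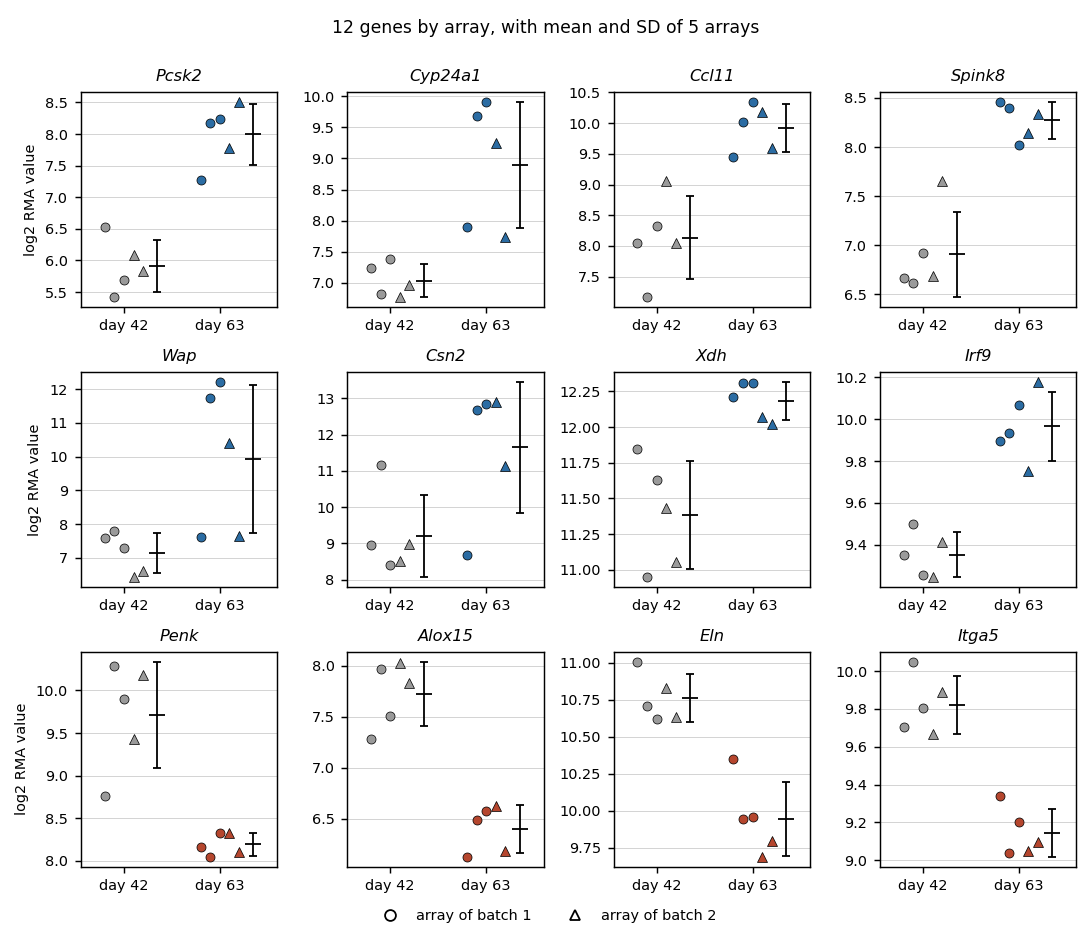
Log2 RMA values of 12 genes on each array of day 42 (grey) and day 63 (blue for genes that rose, red for genes that fell), with circles for batch 1, triangles for batch 2 and bars for the mean and SD of 5 arrays. In 10 panels the ages do not overlap, while Wap and Csn2 split the day 63 arrays into high and low.

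Milk protein and whey genes were higher at day 63 in most members. Of 20 tested, 3 rose (15%, against 0.719% of all tested genes), 0 fell, and 19 had a positive difference, with a median of 0.51 against -0.01 over all genes. The median was 0.47 within batch 1 and 0.76 within batch 2. In 3 members (15%, against 1.02% of all tested genes) the day 63 arrays lay wholly higher, Xdh, Muc15 and Lpo. Beside them, 8 of 9 alveolar and luminal progenitor genes (median 0.38, 1 called) and 15 of 18 luminal genes (median 0.17, 0 called) had positive differences. The progenitor list mean was 10.20, 9.81, 9.90, 9.96 and 9.77 on the day 42 arrays and 10.00, 10.38, 10.36, 10.39 and 10.29 on the day 63 arrays, array 1 being the lowest of day 63 there and in the milk list mean. With the luminal mean as a covariate the milk median was 0.39 and 3 genes were called, and the part of epithelial cell number was not tested. Xdh encodes xanthine oxidoreductase, which also coats the milk fat droplet, and it was the milk gene called with each array left out. Xdh read 11.84, 10.95, 11.63, 11.43 and 11.06 on the day 42 arrays and 12.21, 12.31, 12.31, 12.07 and 12.02 on the day 63 arrays. All 5 day 63 arrays lay above all 5 of day 42, and the difference was 0.80 ± 0.13 (a 1.75-fold rise, adjusted p = 0.00285).

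The whey acidic protein gene Wap and the beta-casein gene Csn2 had the largest differences of all called genes, and both rested on some of the day 63 animals. Wap read 7.59, 7.80, 7.29, 6.44 and 6.62 on the day 42 arrays and 7.62, 11.75, 12.22, 10.40 and 7.66 on the day 63 arrays (difference 2.78 ± 0.64, adjusted p = 0.0244). It passed the floor in 1 day 42 array and 4 day 63 arrays, so the ratio is less exact than the direction. For Csn2 the values were 8.95, 11.17, 8.41, 8.50 and 8.99 at day 42 and 8.70, 12.68, 12.86, 12.89 and 11.12 at day 63 (difference 2.45 ± 0.60, adjusted p = 0.0328). At day 63, arrays 2, 3 and 4 were high and array 1 low in both genes, and array 5 was low in Wap but intermediate in Csn2. Other milk genes that were not called had the same arrays high. Csn1s2a, an alpha-s2-casein gene, read 6.76, 11.32, 11.49, 11.17 and 6.81 at day 63 and 6.90, 10.28, 7.36, 6.22 and 8.06 at day 42 (difference 1.75 ± 0.73, adjusted p = 0.245). The whey protein gene Glycam1 read 9.81, 13.47, 13.46, 12.63 and 11.49 at day 63 and 8.77, 13.38, 7.43, 6.84 and 11.76 at day 42 (difference 2.54 ± 1.02, adjusted p = 0.229). Day 42 array 5, at 11.76 in Glycam1, had a T cell gene mean of 8.0, and day 42 array 2, at 13.38, had 6.77. The part of immune cells in the Glycam1 values was not tested. Day 42 array 2 was the highest of its age in Csn2 (11.17), Csn1s2a, Glycam1 and Wap, though its Wap value of 7.80 was close to the 7.59 of array 1. Wap lost its call without day 42 array 3, 4 or 5 or day 63 array 2, 3 or 4 (adjusted p = 0.0566 to 0.118), and Csn2 without day 42 array 3, 4 or 5 or day 63 array 2, 3, 4 or 5 (adjusted p = 0.0711 to 0.129). The count of milk genes that rose was 1 without day 42 array 3, 4 or 5 or day 63 array 2, 3 or 4, and 5 without day 63 array 1.

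Other milk genes had smaller differences. The kappa-casein gene Csn3 had a mean of 12.80 ± 0.23 at day 42 and 13.40 ± 0.16 at day 63 (difference 0.60 ± 0.24, adjusted p = 0.214). For the alpha-s1-casein gene Csn1s1 the means were 13.24 ± 0.07 and 13.36 ± 0.11 (0.12 ± 0.43, adjusted p = 0.928). Lalba, the alpha-lactalbumin gene, had 12.39 ± 0.53 and 13.03 ± 0.31 (0.64 ± 0.53, adjusted p = 0.623). None of the 3 passed the test, the sign for Csn1s1 turned with the luminal mean as a covariate (-0.138), and values near the top of the RMA scale can be compressed by saturation. Of the 14 tested genes of the prolactin and STAT5 pathway, 0 were called and 7 had a positive difference, with a median of 0.02. The prolactin receptor gene Prlr differed by -0.15 ± 0.25 (adjusted p = 0.83), Stat5a by -0.13 ± 0.15 and the milk gene regulator Elf5 by 0.49 ± 0.44. Jak2, the kinase that couples the receptor to STAT5, was higher on all 5 day 63 arrays without passing (0.42 ± 0.13, adjusted p = 0.102).

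STAT5 is known to bind the sequence TTCNNNGAA, which reads the same on both strands. Of the 20 tested milk genes, 19 had a promoter in the RefSeq table (GRCr8, 250 bases before to 50 after the annotated start), and 6 of the 19 held this sequence, against 6.77% of the 9061 promoters of tested genes and 8.68% of all 27457. Among the 3 called genes it was found in Csn2 and not in these windows of Wap and Xdh. The stretches of 60 bases around the match are shown for Csn2 and for 3 members that were not called, to show how alike the casein sites are in position, with the match in capitals. The Csn2 stretch lies at chr14:20601701-20601760 on the plus strand, with the match starting 97 bases before the annotated start. Those of Csn1s2a (chr14:20574540-20574599, 102 bases before) and Csn1s1 (chr14:20638916-20638975, 100 bases before) lie on the minus strand of the same chromosome, and that of Glycam1 (chr7:136561441-136561500, 175 bases before) on the minus strand of chromosome 7. A match is a description of the letters, not a measured site.
Csn2: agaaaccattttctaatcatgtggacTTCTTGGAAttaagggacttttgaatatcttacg
Csn1s2a: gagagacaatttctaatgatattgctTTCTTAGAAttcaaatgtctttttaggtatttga
Csn1s1: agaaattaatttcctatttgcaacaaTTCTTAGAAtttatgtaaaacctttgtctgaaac
Glycam1: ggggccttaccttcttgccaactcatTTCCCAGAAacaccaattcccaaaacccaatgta

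Hormone receptor genes and their targets were not called, and Pgr and Areg differed widely among animals of 1 age. Of 11 tested estrogen and progesterone receptor and target genes 0 were called, with a median of -0.21 and 3 positive. The progesterone receptor gene Pgr read 9.69, 8.20, 11.02, 9.42 and 10.86 at day 42 and 10.99, 8.46, 8.09, 7.69 and 9.55 at day 63. The ages overlapped over nearly their whole range (difference -0.88 ± 0.61, adjusted p = 0.532). The estrogen receptor gene Esr1 had a narrower spread, with means of 9.22 ± 0.29 and 9.01 ± 0.19 (-0.21 ± 0.17, adjusted p = 0.605). Areg, an EGF family growth factor that relays estrogen signals, was highest in day 42 arrays 3 (9.29) and 5 (10.31), the arrays with the highest Pgr of that age, and at day 63 in array 1 (8.91), again the array with the highest Pgr (-0.86 ± 0.48, adjusted p = 0.422). The progesterone target genes Wnt4 (-0.21 ± 0.17, adjusted p = 0.624) and Tnfsf11 (0.06 ± 0.29, adjusted p = 0.95) were not called either, and Tnfsf11 changed sign in 3 alternatives. Tnfsf11 lay under the floor on every array of both ages. Within day 63, array 1 combined the highest Pgr with the lowest Csn2, Csn1s2a and Wap, and arrays 2, 3 and 4 combined the lowest Pgr with the highest Csn2, Csn1s2a and Wap. Array 5, whose Pgr lay between, was nearly as low as array 1 in Csn1s2a and in Wap (7.66 against 7.62). At day 42, array 2 had the lowest Pgr and the highest Csn2. This pairing was seen in the values and not tested, and the cycle stage of single animals was not analysed here.

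**Figure D2:**
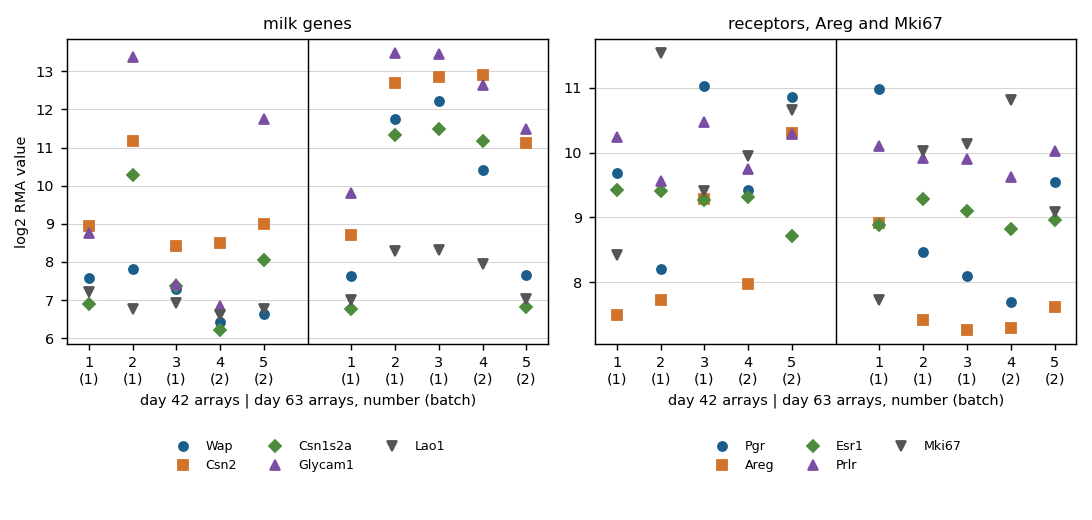
Log2 RMA values of 5 milk genes (left) and of Pgr, Areg, Esr1, Prlr and Mki67 (right) on each of the 10 arrays, with the batch in brackets; each symbol is 1 gene. Day 63 arrays 2, 3 and 4 are high in Wap, Csn2 and Csn1s2a and lowest in Pgr, and day 63 array 1 is the reverse. Day 63 array 5 is also low in Wap and Csn1s2a, with Pgr between.

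Cell division genes had lower values at day 63 with 0 of 30 called. All 30 differences were negative, with a median of -0.34, and the median moved to 0.03 without day 42 array 2, to 0.0 with array weights and to -0.74 without day 42 arrays 1 and 4. Mki67, the Ki-67 proliferation marker, read 8.42, 11.53, 9.41, 9.95 and 10.65 at day 42 and 7.73, 10.03, 10.13, 10.82 and 9.08 at day 63. The ages overlapped (-0.43 ± 0.56, adjusted p = 0.769), and the sign turned without day 63 array 1 (0.013) and with array weights (0.016). For Top2a, a topoisomerase of dividing cells, the difference was -0.42 ± 0.55 (adjusted p = 0.776), and 0.003 without day 42 array 2, which was the highest array in Mki67 and in Mcm2 (10.36, others at day 42 up to 9.13). Mcm2 is a subunit of the replicative helicase.

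Pcsk2, a protease that cuts prohormones in secretory granules, had the smallest p of all genes. On the day 42 arrays Pcsk2 read 6.52, 5.42, 5.69, 6.08 and 5.84, and on the day 63 arrays it read 7.28, 8.18, 8.24, 7.77 and 8.51. The lowest day 63 array was well above the highest day 42 array, and the difference was 2.09 ± 0.20 (a 4.25-fold rise, adjusted p = 1.92e-07), of 2.02 within batch 1 and 2.18 within batch 2. All day 42 values and day 63 array 1 lay under the floor of 7.645, so the ratio is less exact than the direction. The gene passed the filter only through 4 day 63 arrays, with 0 arrays of the other 5 stages above the floor. With no filter its adjusted p was 5.99e-08. At the other stages the mean was 5.74 ± 0.20 at day 21, 5.77 ± 0.18 in lactation, 6.51 ± 0.17 in nulliparous and 6.35 ± 0.25 in parous glands, which makes day 63 the highest of the 6 stage means as a description. Of the 9 prohormone processing and neuropeptide genes tested, Pcsk2 rose, Penk fell and 7 were not called. Scg5, which encodes the 7B2 chaperone of the Pcsk2 protease, differed by 0.32 ± 0.17 (adjusted p = 0.366), the convertase gene Furin by -0.37 ± 0.13 (adjusted p = 0.163) and the amidating enzyme gene Pam by 0.01 ± 0.13 (adjusted p = 0.975).

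Penk encodes proenkephalin, the precursor of the enkephalin opioids, and moved the other way. The Penk values were 8.77, 10.28, 9.90, 9.44 and 10.19 at day 42 and 8.16, 8.05, 8.33, 8.33 and 8.10 at day 63. No day 63 array reached the lowest day 42 array, and Penk fell by 1.52 ± 0.29 (2.87-fold, adjusted p = 0.00983). Its call was lost without day 42 array 5 (adjusted p = 0.0542). The day 63 arrays lay close together and the day 42 arrays did not, array 1 being the lowest of them.

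Cyp24a1 encodes the 24-hydroxylase that breaks down active vitamin D and is itself a textbook target of the vitamin D receptor. At day 42 Cyp24a1 stood at 7.23, 6.82, 7.38, 6.78 and 6.96, and at day 63 at 7.89, 9.68, 9.91, 9.24 and 7.73. All day 63 arrays were above all day 42 arrays, with arrays 2, 3 and 4 well above 1 and 5 (difference 1.86 ± 0.30, 3.63-fold, adjusted p = 0.0027). These are the same 3 arrays that were highest in Wap and Csn2. Day 42 values lay under the floor. In lactation the mean reached 12.80 ± 0.42, and it was 7.82 ± 0.79 and 7.95 ± 0.73 in nulliparous and parous glands. Vdr, the vitamin D receptor gene, did not pass (0.37 ± 0.23, adjusted p = 0.48), nor did Cyp27a1, a vitamin D 25-hydroxylase gene (0.55 ± 0.16, adjusted p = 0.0912). Pth1r, the receptor for parathyroid hormone and its related peptide, fell by 0.65 ± 0.13 (adjusted p = 0.0126). Its day 63 values were 8.45, 8.15, 8.11, 8.11 and 8.11, with array 1 alone inside the day 42 range of 8.35 to 9.21. Of the 7 vitamin D and calcium genes tested, these 2 were called and 5 were not, and Pth1r was not called without day 42 array 5 or day 63 array 3 (adjusted p = 0.056 to 0.0682).

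Ccl11 encodes eotaxin, which attracts eosinophils, cells known to enter the gland around the terminal buds. Ccl11 read 8.06, 7.17, 8.33, 9.05 and 8.05 on the day 42 arrays and 9.44, 10.02, 10.35, 10.19 and 9.59 on the day 63 arrays. The groups did not overlap, and the difference was 1.79 ± 0.26 (a 3.45-fold rise, adjusted p = 0.000748). Of 15 tested chemokine and cytokine genes for eosinophils and monocytes it was the only 1 called. The other eotaxin gene measured, Ccl24, differed by 0.09 ± 0.23 (adjusted p = 0.89), with a sign that turned in 3 alternatives. The monocyte chemokine gene Ccl2 differed by -0.26 ± 0.40 (adjusted p = 0.806) and the alarmin gene Il33 by 0.04 ± 0.14 (adjusted p = 0.927).

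Alox15, an arachidonate lipoxygenase gene that eosinophils and some macrophages express, fell over the same interval. On the day 42 arrays Alox15 read 7.29, 7.96, 7.51, 8.03 and 7.83, and on the day 63 arrays it read 6.13, 6.49, 6.58, 6.63 and 6.18. Every day 63 array lay below every day 42 array, and Alox15 fell by 1.32 ± 0.19 (2.5-fold, adjusted p = 0.000487). All day 63 values lay under the floor, so the ratio is less exact than the direction. Its stage means ran from 10.51 ± 0.43 at day 21 through 7.72 ± 0.32 and 6.40 ± 0.23 to 5.88 ± 0.14 in lactation. Only 2 of the 8 eosinophil markers matched passed the floor, Alox15 among them. The other had a difference of 0.15 and was not called. Among mast cell genes 1 of 8 fell (12.5%, against 0.501% of all tested genes), Tpsb2, which encodes a tryptase. The Tpsb2 values were 8.81, 9.18, 9.54, 8.81 and 9.07 at day 42 and 8.37, 8.33, 8.43, 7.78 and 8.07 at day 63. The ages did not overlap (difference -0.89 ± 0.21, adjusted p = 0.0308), but Tpsb2 lost its call in 8 of the 10 fits that left out 1 array (adjusted p up to 0.117, without day 42 array 5). The histamine-forming enzyme gene Hdc was also lower on all 5 day 63 arrays without passing (-0.47 ± 0.13, adjusted p = 0.078), and the mast cell protease gene Cpa3 overlapped (-0.47 ± 0.33, adjusted p = 0.549).

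Pla2g2a, a secreted phospholipase that releases fatty acids and kills bacteria, rose with 1 array far above the others. Its day 63 values were 9.22, 8.12, 8.23, 8.25 and 10.42, all above the day 42 range of 7.07 to 7.81 (difference 1.38 ± 0.28, adjusted p = 0.0141, 0.0643 without day 42 array 5). Of the 16 lipoxygenase and prostaglandin genes tested, Pla2g2a rose, Alox15 fell and 14 were not called. Pigr, the receptor that carries immunoglobulin A across the epithelium, rose from 5.95, 6.21, 6.07, 6.17 and 6.16 to 6.8, 6.85, 6.83, 6.87 and 8.78. The 5 day 63 values were all higher, 4 of them close together and array 5 far above (difference 1.12 ± 0.24, adjusted p = 0.0159, 0.0651 without day 42 array 5). All Pigr values at day 42 and 4 of the 5 at day 63 lay under the floor, which only array 5 passed.

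Interferon genes had higher values at day 63 in nearly all members. Type I interferons act through a complex that includes IRF9 and binds a response element before antiviral genes, and IRF7 amplifies the signal. Among 18 tested sensors and regulators 2 rose (11.1%) and 17 had a positive difference (median 0.30). Among 36 tested effectors 10 rose (27.8%), 0 fell and all 36 had a positive difference (median 0.50, 0.53 within batch 1 and 0.52 within batch 2). In 7 effectors (19.4%) and 4 regulators (22.2%) the ages did not overlap. Of the called effectors only Herc6, Rtp4 and Ifi27l2b were among these. Over all tested genes 0.719% rose and 1.02% lay wholly higher at day 63. The regulator count was 1 without day 42 array 3 or 4 or day 63 array 3 or 5. The effector count fell to 3 without day 42 array 3, day 42 array 5 or day 63 array 3, to 5 without day 63 array 2 or 5 and to 6 without day 42 array 4, and rose to 15 without day 63 array 4, while the median stayed between 0.42 and 0.62 in all 27 alternatives. The list means of the effectors were 8.16, 8.54, 8.14, 8.39 and 8.59 on the day 42 arrays and 8.87, 8.84, 8.93, 8.78 and 9.41 on the day 63 arrays, array 5 being far above the rest.

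Of the regulators, Irf9, the DNA-binding part of the interferon-activated complex, was called with each array left out. At day 42 Irf9 stood at 9.35, 9.50, 9.26, 9.25 and 9.41, and at day 63 at 9.89, 9.94, 10.07, 9.75 and 10.18. The ages did not overlap, and the difference was 0.61 ± 0.11 (adjusted p = 0.00752). Irf7 read 8.16, 9.09, 8.55, 8.57 and 9.19 at day 42 and 9.65, 9.50, 9.80, 9.28 and 10.25 at day 63, again without overlap (0.99 ± 0.22, adjusted p = 0.0198). It was not called without day 42 array 3 or 4 or day 63 array 3 or 5 (adjusted p = 0.0548 to 0.079). Usp18, which dampens interferon signalling, and Zbp1, a nucleic acid sensor, were higher on every day 63 array without passing (1.04 ± 0.35, adjusted p = 0.14, and 0.85 ± 0.37, adjusted p = 0.266). Stat2 (0.47 ± 0.16, adjusted p = 0.128) and the interferon receptor genes Ifnar1 (0.09 ± 0.12) and Ifngr1 (0.20 ± 0.08) were not called. Irf1, a factor of the interferon-gamma response, differed by 0.08 ± 0.22 (adjusted p = 0.897).

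The calls of 3 effectors held with each array left out. Herc6, which encodes a ligase of the ubiquitin-like modifier ISG15, read 8.95, 8.62, 8.57, 9.08 and 9.18 at day 42 and 9.74, 9.57, 9.72, 9.54 and 10.69 at day 63 (0.97 ± 0.19, adjusted p = 0.00983). Rtp4, an interferon-induced chaperone of receptor transport, read 6.88, 7.50, 7.04, 7.30 and 7.13 at day 42 and 8.08, 8.32, 8.24, 7.63 and 8.28 at day 63 (0.94 ± 0.17, adjusted p = 0.00752), with the day 42 values under the floor. Ifi27l2b, one of a family of small interferon-induced membrane proteins, read 7.59, 8.03, 7.62, 7.75 and 8.45 at day 42 and 8.64, 8.75, 8.53, 8.60 and 9.38 at day 63 (0.89 ± 0.16, adjusted p = 0.00738). All 3 were without overlap, and Herc6 and Ifi27l2b were highest in day 63 array 5.

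The calls of the classical antiviral effectors rested more on single arrays. Isg15 itself read 5.51, 6.39, 5.53, 5.89 and 6.33 at day 42 and 6.46, 6.37, 6.77, 6.71 and 8.39 at day 63, where only array 5 passed the floor (1.01 ± 0.25, adjusted p = 0.0328). Ifit1, which binds viral RNA, read 8.10, 7.55, 8.15, 7.99 and 9.65 at day 63, array 5 again highest (1.12 ± 0.25, adjusted p = 0.0203). Mx2, a dynamin-like antiviral GTPase gene, read 7.78, 8.15, 8.65, 7.65 and 9.21 (1.22 ± 0.29, adjusted p = 0.0295). Without day 63 array 5 none of these 3 was called (adjusted p = 0.128, 0.0814 and 0.112), nor were Rsad2 (0.0974) and Ifi44 (0.091). Rsad2, the viperin gene, rose by 0.92 ± 0.21 (adjusted p = 0.0224), Ifi44 by 0.72 ± 0.16 (0.0224), the oligoadenylate synthetase-like gene Oasl by 0.86 ± 0.18 (0.0141) and the nucleotide kinase gene Cmpk2 by 0.49 ± 0.10 (0.015). The ages overlapped in Isg15, Ifit1, Mx2, Rsad2, Ifi44, Oasl and Cmpk2. At day 42, Ifit1, Mx2 and Oasl passed the floor in 1 array each and Rsad2 in 0, so their sizes are less exact than their directions. Mx1 had the largest effector difference but failed the test with a large SE (1.59 ± 0.57, adjusted p = 0.16), although its day 63 values (8.52, 8.26, 8.66, 8.87 and 9.29) all lay above those of day 42 (6.54, 7.54, 6.62, 7.30 and 7.63). Slfn4, a schlafen gene of myeloid cells, was in no list and rose from 7.81, 8.43, 7.47, 8.49 and 8.79 to 9.73, 9.50, 9.62, 9.51 and 10.28 without overlap (1.53 ± 0.33, adjusted p = 0.0191), and lost its call without day 42 array 3 or 5 or day 63 array 2, 3 or 5 (adjusted p = 0.0519 to 0.0678).

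**Figure D3:**
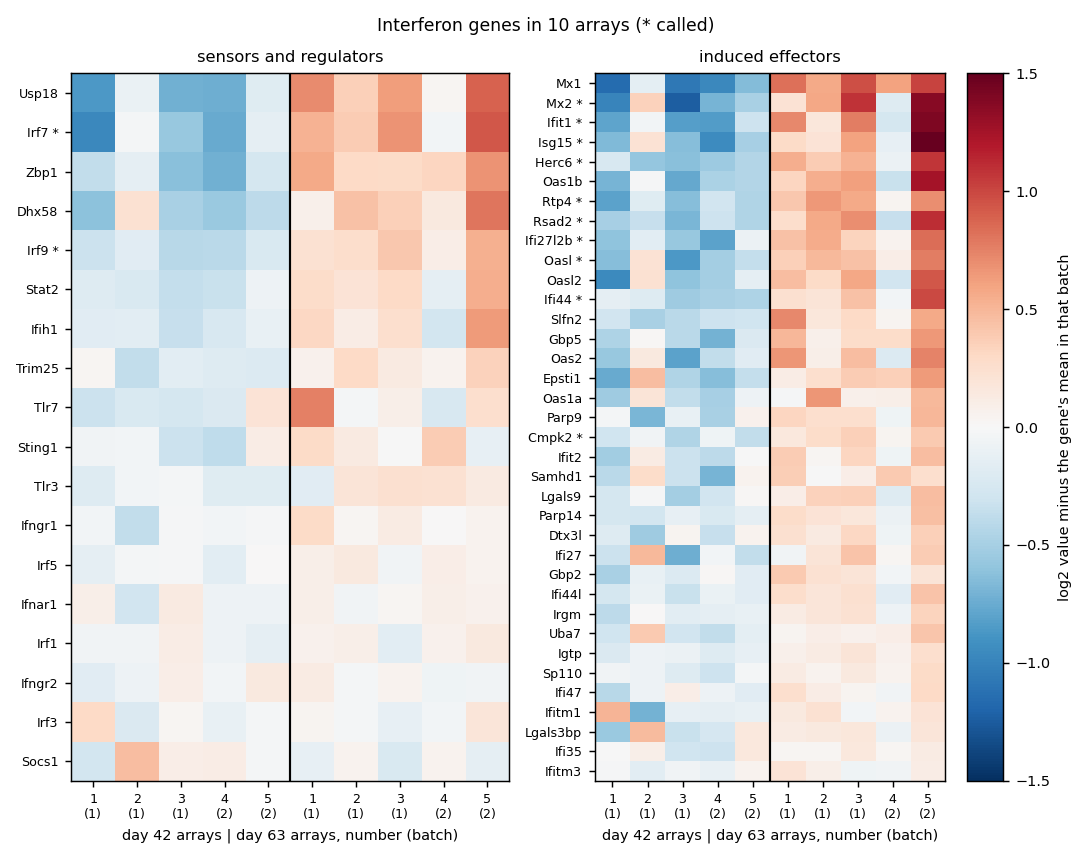
Log2 values of 18 interferon sensors and regulators (left) and 36 induced effectors (right) on the 10 arrays. Each is the difference from the gene's mean over those of the 10 arrays that are of the same batch, both ages together. Red is higher, blue lower, and an asterisk marks a called gene. Day 42 arrays are mostly blue and day 63 arrays mostly red, with array 5 the deepest.

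Immune cell genes gave the following values beside these. All 15 tested T cell genes had positive differences (median 0.49) with 0 called, and the array means ranged from 6.77 to 8.0 at day 42 and 6.99 to 8.59 at day 63. B cell genes had a median of 0.29 (10 tested, 0 called) and macrophage genes one of 0.18 (14 tested, 0 called, -0.08 within batch 2). Day 63 array 5, with the highest effector mean, had a T cell mean of 8.07, and day 63 arrays 1 to 4 had T cell means of 7.40, 7.02, 6.99 and 8.59. The part of immune cells in the interferon values was not tested. In antigen presentation 1 of 14 tested class I genes rose, RT1-S3, with values of 9.53, 9.63, 9.18, 9.69 and 9.38 at day 42 and 10.46, 10.54, 10.49, 10.34 and 11.02 at day 63 (1.09 ± 0.25, adjusted p = 0.0224). The ages did not overlap, and the call was lost without day 42 array 3 or 5 or day 63 array 2, 3 or 5 (adjusted p = 0.0688 to 0.0946). RT1-T24-3, another class I gene, rose by 0.98 ± 0.19 (adjusted p = 0.00983) and was called with each array left out. RT1 genes are near copies of each other, so which of them a probe set measured is uncertain. The class I light chain gene B2m did not pass (0.20 ± 0.07, adjusted p = 0.178), nor did the peptide transporter gene Tap1 (0.41 ± 0.27, adjusted p = 0.507).

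The interferon-stimulated response element, whose core was searched as GAAANNGAAA on either strand (TTTCNNTTTC on the other), was found in 21 of the 43 promoters available for the 54 tested interferon genes. It was found in 3.08% of the promoters of all tested genes and 3.77% of all promoters in the table. Of the 7 called genes with a promoter, Irf7, Ifi44 and Rsad2 held it, and Herc6, Oasl, Cmpk2 and Irf9 did not in these windows. The matching stretches of the 3 called genes are given to show the element, in capitals, beside genes that rose. They lie on the minus strand at chr1:205800058-205800117 (Irf7, 69 bases before the annotated start), chr2:243303832-243303891 (Ifi44, 26 bases before) and chr6:48788233-48788292 (Rsad2, 147 bases before).
Irf7: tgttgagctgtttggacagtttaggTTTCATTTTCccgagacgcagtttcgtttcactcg
Ifi44: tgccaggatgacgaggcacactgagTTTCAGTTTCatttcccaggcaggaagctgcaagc
Rsad2: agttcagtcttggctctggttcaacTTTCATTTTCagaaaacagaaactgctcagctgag

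Collagen genes had lower values at day 63 in every member tested. Of 15 collagen genes tested 5 fell (33.3%), 0 rose and all 15 differences were negative (median -0.44, -0.40 within batch 1 and -0.58 within batch 2). In 7 of them (46.7%) every day 63 array lay below every day 42 array. Over all tested genes 0.501% fell and 1.24% lay wholly lower at day 63. Col5a1, a chain of the type V collagen that nucleates fibrils, read 9.56, 9.93, 9.92, 10.00 and 9.99 at day 42 and 9.35, 9.16, 9.30, 9.35 and 9.02 at day 63. It fell by 0.65 ± 0.15 (adjusted p = 0.0224) and its partner chain Col5a3 by 0.83 ± 0.17 (adjusted p = 0.015), both without overlap. The type VI microfibril genes Col6a2 (0.52 ± 0.13, adjusted p = 0.0395) and Col6a3 (0.71 ± 0.17, adjusted p = 0.0295) and the basement membrane gene Col4a1 (0.57 ± 0.13, adjusted p = 0.0285) fell by the amounts in brackets. Of the called collagens, Col6a3 alone overlapped between the ages. Type I collagen was lower on all day 63 arrays without passing: Col1a1 read 13.36, 13.49, 13.53, 13.70 and 13.39 at day 42 and 13.31, 13.13, 13.28, 13.23 and 13.09 at day 63 (-0.29 ± 0.18, adjusted p = 0.467) and Col1a2 differed by -0.36 ± 0.19 (adjusted p = 0.384). The collagen count was 0 without day 42 array 3, day 42 array 5 or day 63 array 3, 1 without day 42 array 2 or day 63 array 2 or 5, 2 without day 42 or day 63 array 4, and 8 without day 42 array 1. Day 42 array 1, high in muscle genes, was the lowest of its age in all 5 called collagens except Col6a2.

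Elastin, the stretchable core of elastic fibres, had a smaller p than any collagen. Eln read 11.01, 10.71, 10.62, 10.83 and 10.63 on the day 42 arrays and 10.35, 9.94, 9.96, 9.69 and 9.79 on the day 63 arrays. Eln fell by 0.81 ± 0.14 (1.76-fold, adjusted p = 0.00383), without overlap and in each fit that left out 1 array. It was the only 1 of 23 tested genes of elastic fibres and cross-linking to be called, although 21 of the 23 differences were negative (median -0.39). The microfibril gene Mfap2 (-0.75 ± 0.24, adjusted p = 0.121) and the collagen chaperone gene Serpinh1 (-0.53 ± 0.15, adjusted p = 0.0848) did not overlap between the ages. The cross-linking enzyme genes Lox (-0.53 ± 0.21, adjusted p = 0.205) and Loxl1 (-0.65 ± 0.20, adjusted p = 0.0989) did. Eln stood at 11.04 ± 0.29 at day 21, 10.76 ± 0.16 at day 42 and 9.95 ± 0.25 at day 63, and at 8.17 ± 0.17 to 8.47 ± 0.36 in lactating, parous and nulliparous glands.

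Single genes of adhesion, proteolysis and signalling also fell. Adam12, a membrane protease and adhesion gene, read 9.85, 10.92, 10.81, 10.38 and 10.86 at day 42 and 9.12, 9.80, 9.83, 9.82 and 9.12 at day 63 and fell by 1.03 ± 0.23 (adjusted p = 0.0203). Itga5, the fibronectin-binding integrin chain, read 9.70, 10.05, 9.80, 9.67 and 9.89 at day 42 and 9.34, 9.04, 9.20, 9.05 and 9.10 at day 63 and fell by 0.68 ± 0.13 (adjusted p = 0.00983, 0.0613 without day 42 array 5). Both were free of overlap, and Itga5 was the only 1 of 24 integrin and laminin genes called. S1pr3, a receptor for sphingosine-1-phosphate, fell by 0.88 ± 0.20 (adjusted p = 0.0224) and Agt, the angiotensin precursor gene, by 0.87 ± 0.17 (adjusted p = 0.0113). Pi15, a secreted protease inhibitor gene, fell by 1.14 ± 0.27 (adjusted p = 0.0285) and the metalloprotease gene Adamts19 by 1.04 ± 0.25 (adjusted p = 0.0325), both with overlap and Adamts19 with all day 63 values under the floor. Spry4, a feedback inhibitor of FGF signalling, fell by 0.70 ± 0.15 (adjusted p = 0.0191) as the only 1 of 10 FGF pathway genes called. Smad6, an inhibitor of BMP signalling, fell by 0.38 ± 0.09 (adjusted p = 0.0369), the only 1 of 19 TGF-beta and BMP genes. Every gene of this paragraph except Agt and Itga5 lost its call in 4 or more of the 10 fits that left out 1 array, most strongly without day 42 array 5 for Adam12 (0.097), S1pr3 (0.109) and Spry4 (0.0968), day 42 array 2 for Pi15 (0.112) and Adamts19 (0.145) and day 63 array 3 for Smad6 (0.138). Agt lost it without day 42 array 5 (0.0622).

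**Figure D4:**
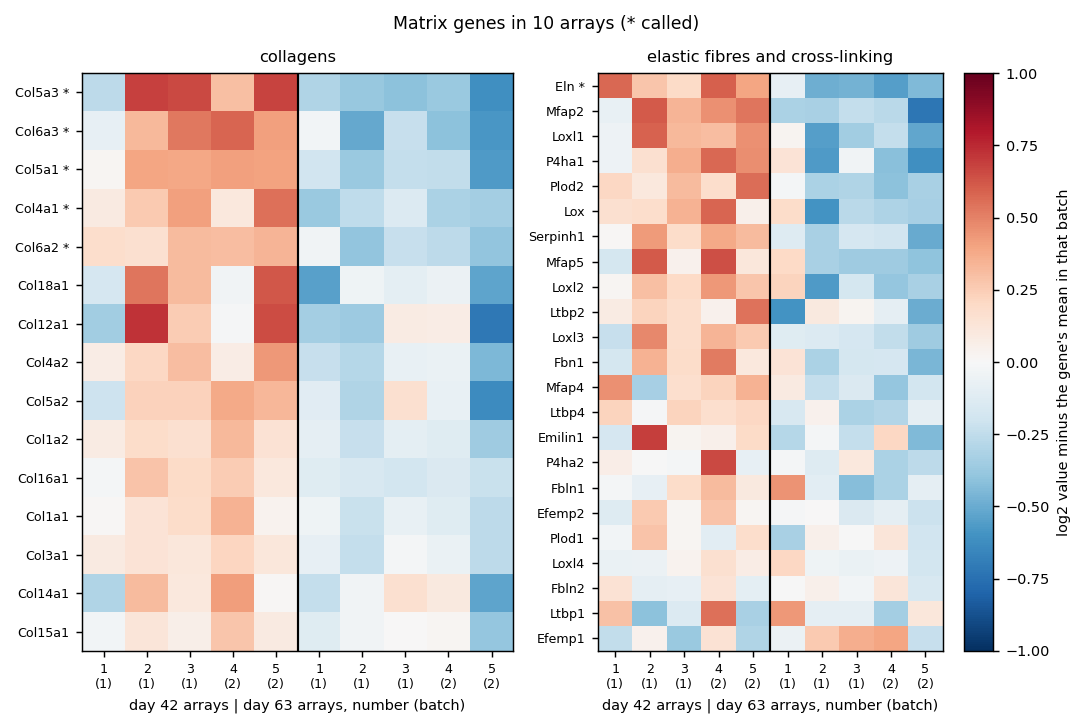
Log2 values of 15 collagen genes (left) and 23 genes of elastic fibres and cross-linking (right) on the 10 arrays. Each is the difference from the gene's mean over those of the 10 arrays that are of the same batch, both ages together. Red is higher, blue lower, and an asterisk marks a called gene. Day 42 arrays are mostly red, array 1 least so, and day 63 arrays mostly blue.

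The fibroblast genes as a list were not called (0 of 11, median -0.22), and the white adipocyte genes had 0 of 20 called with 17 negative (median -0.23). The adipokine gene Adipoq differed by -0.05 ± 0.15 (adjusted p = 0.909), with the sign turned without day 42 array 3, the leptin gene Lep by 0.57 ± 0.37 (adjusted p = 0.498) and the growth factor gene Igf1 by -0.17 ± 0.13 (adjusted p = 0.576). Of the 2 red cell genes tested 1 fell. Hbb-b1, a beta-globin gene, read 9.87, 9.93, 9.98, 10.77 and 10.85 at day 42 and 9.62, 8.71, 9.01, 9.70 and 9.43 at day 63 and fell by 0.99 ± 0.20 without overlap (adjusted p = 0.0141). It was not called without day 42 array 5 or day 63 array 2 or 3 (adjusted p = 0.0564 to 0.0706), and Hba-a1 just missed (-0.69 ± 0.19, adjusted p = 0.0579). Madcam1, the address molecule of vessels that take up lymphocytes, fell by 0.53 ± 0.12 with overlap between the ages (adjusted p = 0.0191). Madcam1 passed the floor in only 1 day 42 array and 0 day 63 arrays. Its call was lost without day 42 array 2 or 5 or day 63 array 3 or 5 (adjusted p = 0.0566 to 0.0976).

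Chaperone and stress genes of the endoplasmic reticulum had lower values at day 63 in most members. Of 25 tested 3 fell (12%, against 0.501% of all tested genes) and 20 differences were negative (median -0.18). Hspa5, the master chaperone BiP, read 12.55, 12.72, 13.05, 12.72 and 12.93 at day 42 and 12.68, 12.14, 12.36, 12.21 and 12.02 at day 63. Day 63 array 1 alone lay inside the day 42 range (-0.51 ± 0.12, adjusted p = 0.0315). Hyou1, its nucleotide exchange partner, fell by 0.58 ± 0.13 (adjusted p = 0.0252) without overlap and Manf, a secreted stress protein, by 0.51 ± 0.12 (adjusted p = 0.0295). The stress factor genes Atf4 (0.03 ± 0.08), Ddit3 (-0.01 ± 0.10) and Xbp1 (0.02 ± 0.14) were not called, with adjusted p of 0.904, 0.976 and 0.97. The count was 0 without day 42 array 2, 3 or 5 or day 63 array 2 or 3, 1 without day 63 array 4, 2 without day 42 array 4 or day 63 array 5, 5 without day 63 array 1 and 6 without day 42 array 1.

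The stress element known to control these chaperones, searched as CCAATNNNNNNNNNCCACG or its other strand, was found in 7 of the 21 promoters available for the list, against 0.166% of the promoters of tested genes and 0.0765% of all. Of the 2 called genes with a promoter, Hspa5 held it and Hyou1 did not in this window. The stretch of Hspa5 lies at chr3:38452952-38453011 on the plus strand, 43 bases before the annotated start. It is shown with that of Hsp90b1 (chr7:23012431-23012490, minus strand, 176 bases before) and Creld2 (chr7:121789218-121789277, plus strand, 145 bases before, matched on the other strand), whose differences were -0.34 ± 0.11 (adjusted p = 0.124) and -0.35 ± 0.17 (adjusted p = 0.327).
Hspa5: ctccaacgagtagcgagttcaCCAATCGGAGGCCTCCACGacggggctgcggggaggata
Hsp90b1: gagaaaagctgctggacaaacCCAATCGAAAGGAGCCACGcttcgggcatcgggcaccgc
Creld2: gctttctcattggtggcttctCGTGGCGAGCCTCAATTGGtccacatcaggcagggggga

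Cytosolic heat shock genes had 2 of 16 fall (12.5%) and 15 negative (median -0.25), with 5 (31.2%) lower on all day 63 arrays. The shares of all tested genes were 0.501% and 1.24%. Hsph1, an HSP110 chaperone gene, read 8.91, 9.0, 9.23, 9.41 and 9.96 at day 42 and 8.68, 8.15, 8.33, 8.42 and 8.67 at day 63 and fell by 0.85 ± 0.19 (adjusted p = 0.0224). Cryab, the small heat shock protein alpha-B crystallin gene, fell by 0.76 ± 0.19 (adjusted p = 0.04), also without overlap. Both lost their call without day 42 array 5 (0.108 and 0.097) and in 5 and 7 other such fits. The count was 0 without day 42 array 3 or 5 or day 63 array 2, 3, 4 or 5, 1 without day 42 array 2 and 3 without day 42 array 1. Hspa8, the constitutive HSC70 gene, was lower on every day 63 array by 0.13 ± 0.05 (adjusted p = 0.245).

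Sterol synthesis had 3 of 17 genes fall (17.6%, against 0.501% of all tested genes) and 14 negative (median -0.23, -0.38 within batch 1 and -0.04 within batch 2). Sqle, squalene epoxidase, read 7.94, 8.82, 8.08, 7.88 and 7.92 at day 42 and 7.34, 7.38, 7.09, 7.49 and 7.53 at day 63 and fell by 0.76 ± 0.19 without overlap (adjusted p = 0.0328). Msmo1, a sterol oxidase gene, fell by 0.62 ± 0.15 (adjusted p = 0.033) and Hsd17b7, which acts on sterols and on estrone, by 0.75 ± 0.17 (adjusted p = 0.025). The regulator gene Srebf2 (-0.35 ± 0.13, adjusted p = 0.205) did not pass. All day 63 values of Sqle and Hsd17b7 lay under the floor. The core of the sterol regulatory element, searched as TCACNCCAC on either strand (GTGGNGTGA on the other), was in 0 of the 13 promoters available for the list, against 1.08% of the promoters of tested genes and 1.13% of all. Day 42 array 2 was the highest array of its age in Sqle and Msmo1, and the count was 0 without day 42 array 2, 3 or 5 or day 63 array 2 or 3, 1 without day 63 array 4, 2 without day 42 array 4 or day 63 array 1 and 4 without day 63 array 5.

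Other large differences were of single genes. Spink8, a protease inhibitor gene, rose from 6.66, 6.61, 6.91, 6.68 and 7.65 to 8.46, 8.4, 8.02, 8.14 and 8.34 without overlap (1.37 ± 0.21, adjusted p = 0.0013), and stood higher still in nulliparous glands (mean 10.65 ± 1.45). At day 42 Spink8 passed the floor in 1 array. Reg3b, a bactericidal lectin gene, read 7.32, 5.30, 6.70, 6.52 and 5.74 at day 42, under the floor, and 6.99, 8.77, 8.14, 8.09 and 8.01 at day 63 (1.69 ± 0.34, adjusted p = 0.0119). Day 63 array 1 alone stayed in the day 42 range, and the call was lost without day 42 array 5 or day 63 array 2 (adjusted p = 0.0508 to 0.0628). Pdk4, which turns cells from glucose to fatty acid oxidation, read 11.74, 9.75, 10.67, 11.02 and 10.55 at day 42 and 11.64, 12.65, 12.59, 11.83 and 11.96 at day 63 (1.38 ± 0.35, adjusted p = 0.0409). Here day 42 array 1 reached the day 63 values, and Pdk4 was not called in 8 of the 10 fits that left out 1 array. Tll1, a tolloid-like metalloprotease gene, rose by 1.27 ± 0.30 (adjusted p = 0.0259), with day 63 array 1 at 9.20 and the other 4 from 10.10 to 10.26. It lost its call without day 42 array 2, 3 or 5 or day 63 array 2, 3, 4 or 5 (adjusted p = 0.0503 to 0.13). Cd14, the lipopolysaccharide co-receptor that luminal progenitors also express, rose by 0.92 ± 0.22 (adjusted p = 0.0323), a call lost without day 42 array 2, 3, 4 or 5 or day 63 array 2, 3, 4 or 5 (adjusted p = 0.0642 to 0.138). St3gal4, a sialyltransferase gene, rose by 0.48 ± 0.09 (adjusted p = 0.00793) and was called with each array left out. Mroh3 rose by 1.11 ± 0.21 (adjusted p = 0.00969), a call lost without day 42 array 5 (adjusted p = 0.0516).

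Egr2, an immediate early transcription factor gene, had the largest fall among called genes. It read 7.78, 8.93, 9.85, 8.61 and 10.37 at day 42 and 8.38, 7.58, 7.36, 7.23 and 7.03 at day 63 (difference -1.59 ± 0.39, adjusted p = 0.0371), with the highest values in day 42 arrays 3 and 5, which were also the highest in Areg and Pgr at that age. The ages overlapped, with day 63 array 1 above day 42 array 1. At day 63 only array 1 passed the floor, so the size of the fall is less exact than its direction. Egr2 was the only 1 of 17 immediate early genes called, Fos (-0.36 ± 0.34) and Egr1 (-0.36 ± 0.24) having adjusted p of 0.676 and 0.51, and it was not called in 8 of the 10 fits that left out 1 array (up to 0.177, without day 42 array 5). Srm, the spermidine synthase gene, fell by 0.81 ± 0.17 (adjusted p = 0.0135) and Prag1, a pseudokinase gene, by 0.84 ± 0.19 (adjusted p = 0.0224), both without overlap. Without day 42 array 5 they had adjusted p of 0.0682 and 0.113. Of all 58 gene lists, 35 had 0 called members, and the plot of list members by group shows 17 of the 58.

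**Figure D5:**
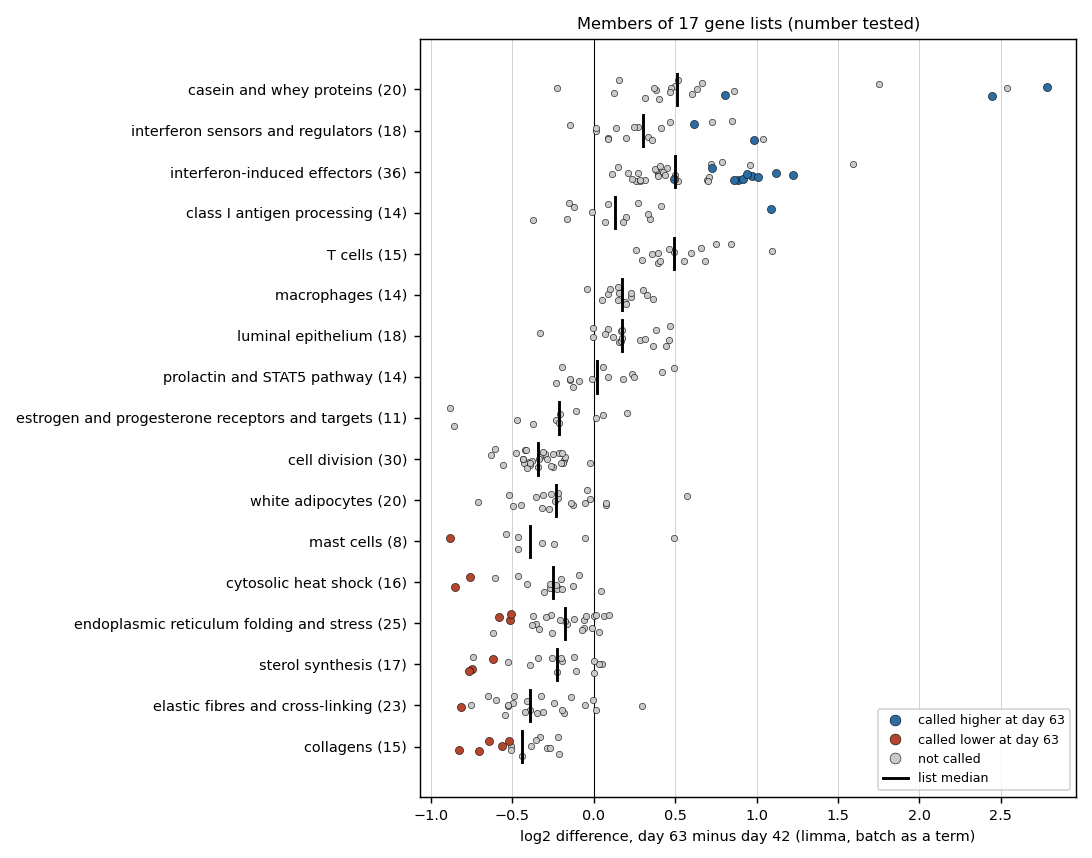
Log2 difference between day 63 and day 42 for the tested members of 17 gene lists, 1 point a gene, blue if called higher at day 63, red if called lower and grey if not called; the black line is the list median. Milk and interferon lists lie to the right of 0 and collagens, elastic fibres and cell division to the left, the last with 0 called.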

How the data were processed

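RNA from the gland was measured on Affymetrix whole-transcript arrays, 1 per sample. The deposited values are log2 RMA values, made with Affymetrix Expression Console and RMA per the submitters' processing notes. Their versions, and whether all 33 arrays were normalized together, are not stated in the sources used here. An array has no read depth, so precision is limited by how many arrays there are. Of 36685 probe sets, 18511 had 1 gene symbol, 575 several and 17599 none, and 18394 of the 18511 matched a RefSeq gene (GRCr8) by gene ID. They named 18166 genes, and for the 291 genes with several probe sets the brightest on average was kept.

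The log2 values of genes above 7.645 in at least 3 arrays were fitted with limma 3.58.1 in R 4.3.3 (lmFit, then eBayes with an intensity trend) over all 33 arrays, with stage and batch as terms, and p-values are two-sided with Benjamini-Hochberg adjustment. Batch is as the labels give it. The fit was tested on data simulated with independent noise and known changes. Those data held no outlying arrays, so they cannot show how single arrays move the calls. Tables and figures were made with Python 3.11.15, pandas 2.3.3 and matplotlib 3.10.9. Alternatives changed the batch term, the arrays, the filter, the normalization, the probe set rule, the variance trend, weights, covariates and the threshold, and left out each of the 10 arrays in turn. The comparison, the gene lists and the promoter elements were chosen with earlier results of these data known. Named genes were the 15 largest rises and the 15 largest falls among called genes, those called with each array left out, called list members, a panel of 27 genes (21 tested) and defining members of the lists described. The labels name 5 animals per age. The p-values rest on a spread between animals estimated over all 33 arrays and shared by all stages, not on these animals alone.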

Additional observations from a re-analysis of the deposited data

Results flagged for a closer look

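In 29 of 272 checks, 1 of 5 arrays stood apart from the other 4 by Dixon's gap ratio, which chance flags in about 1 in 20 groups. Of these 20 were genes and 9 were list means.

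Day 63 array 5 was the high array in 8. It read 8.78 in Pigr (6.8 to 6.87 in the other 4), 8.39 in Isg15, 9.65 in Ifit1, 10.69 in Herc6, 9.38 in Ifi27l2b, 11.02 in RT1-S3 and 10.37 in RT1-T24-3, and its mean of interferon-induced effectors was 9.41 (8.78 to 8.93 in the other 4). Day 63 array 4 was low in Oasl (7.23).

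Day 63 array 1 stood apart in 8 as well. It was high in Agt (9.86), Areg (8.91), Pth1r (8.45) and the means of immediate early genes (9.11) and of lipoxygenases and prostaglandins (8.81). It was low in Csn3 (13.12), Tll1 (9.2) and the mean of alveolar and luminal progenitor genes (10.0, others 10.29 to 10.39).

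At day 42, array 5 was high in the means of T cells (8.0), B cells (8.42) and plasma cells (9.3) and low in Esr1 (8.72). Array 2 was high in Csn2 (11.17), Oasl (7.83), Sqle (8.82) and the mean of imprinted growth genes (8.84). Array 3 was high in Col6a2 (11.74) and Igf1 (12.38), and array 1 low in Col5a1 (9.56) and the eosinophil mean (7.7).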

How the results depend on the processing

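No called gene changed sign in any alternative. The count of 134 called genes was 5 with no batch term, 0 with batch 1 or batch 2 arrays alone, 18 at an adjusted p under 0.01 and 28 with a 2-fold minimum added. It was 360 without day 42 arrays 1 and 4, 218 with the skeletal muscle mean and 250 with the luminal mean as a covariate, and 1653 with array weights. Leaving out 1 array gave 16 (day 42 array 5) to 421 (day 42 array 1). With only the 10 arrays of both ages 98 were called, 42 of them among the 134, and the other settings gave 109 to 183. The 248 genes without overlap became 703 once batch means were removed. Among genes that were not called, Adipoq, Ccl24, Csn1s1, Mki67, Tnfsf11 and Top2a changed sign in 1 to 3 settings. The cause of these changes was not tested. Of the 5 animals per age, each weighs heavily, values under the floor give inexact ratios, and values near the top of the scale may be compressed. No paired analysis was possible because the groups share no replicate numbers in the labels.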

Other observations

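Called genes outside the lists included several of fuel and metal handling, chosen here after their values were seen. Ndrg1, a gene induced by low oxygen and differentiation, rose by 0.67 ± 0.14 (adjusted p = 0.0191), with day 42 array 1 (12.23) inside the day 63 range. The monocarboxylate transporter gene Slc16a1 rose by 0.79 ± 0.18 (adjusted p = 0.0224). The glycerol kinase gene Gk rose by 0.90 ± 0.22 (adjusted p = 0.036), the cholesterol exporter gene Abca1 by 0.76 ± 0.18 (adjusted p = 0.0295) and the fatty acid activating enzyme gene Acsl4 by 0.57 ± 0.14 (adjusted p = 0.0395). In these 5 genes and in Pdk4, day 63 arrays 2 and 3 were the highest of their age, as they were in the metallothionein genes Mt1 (1.09 ± 0.22, adjusted p = 0.0119) and Mt1f (1.04 ± 0.23, adjusted p = 0.0198). Mt1 read 11.61, 12.72, 12.62, 11.77 and 11.24 and Mt1f 10.20, 11.50, 11.68, 10.32 and 9.68 on the day 63 arrays, and since the metallothionein genes are near copies, their signals may be shared. All 7 calls were lost without day 63 array 3 (adjusted p = 0.0548 to 0.151), and all but that of Mt1 also without day 42 array 5 or day 63 array 2.

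Falls outside the lists included further genes of matrix and growth, likewise chosen after their values were seen. The chondroitin synthase genes Chsy1 (0.58 ± 0.12, adjusted p = 0.0136) and Chsy3 (0.54 ± 0.14, adjusted p = 0.0415) and the collagen uptake receptor gene Mrc2 (0.66 ± 0.15, adjusted p = 0.0199) fell by the amounts given. Of these 3, Mrc2 had no overlap between the ages, and Chsy3 passed the filter only through 3 day 42 arrays. The semaphorin receptor gene Plxnd1 fell by 0.49 ± 0.09 (adjusted p = 0.00983), and Cad, which starts pyrimidine synthesis, by 0.55 ± 0.12 (adjusted p = 0.0199), with day 42 array 2 the highest in both. All 5 calls were lost without day 42 array 5 (adjusted p = 0.0516 to 0.186), and all but that of Plxnd1 also without day 63 array 3.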
